A study of Mus musculus with 6 samples.

Results

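The hormones and transcription factors of the non-beta cells of the pancreatic islet, Gcg, Irx1, Irx2, Ttr, Pou3f4, Sst, Hhex and Ghrl, were followed in islets of wild-type and hIAPP_Tg mice. The 8 genes were taken by symbol, and every probe set annotated to exactly 1 of these symbols was kept, which gave 12 of the 45037 probe sets tested. Ttr had 4 probe sets, Pou3f4 had 2 and the other genes had 1 each. Islets of 6 mice were measured, 1 Affymetrix whole-genome mouse array per mouse, with 3 wild-type mice (replicates 1 to 3) and 3 hIAPP_Tg mice (replicates 4 to 6), all aged 12 weeks and on standard chow. The strain label of both genotypes is FVB/N-Tg(Ins2-IAPP)RFHSoel/J, which names the human amylin gene (IAPP) driven by the promoter of the insulin gene Ins2. That promoter acts in beta cells, so the non-beta cells of the islet are not those meant to carry the transgene product. Which cells gave the signal of each gene was not measured. Values are log2 expression values as the authors deposited them, and each difference is hIAPP_Tg minus wild type on that log2 scale. A whole islet was measured, so fewer cells of a type and less RNA per cell cannot be told apart.

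Islet alpha cells secrete glucagon, which raises blood glucose by acting on the liver. Delta cells secrete somatostatin, which restrains the release of both insulin and glucagon from neighbouring cells, and the rare epsilon cells make ghrelin, better known as the appetite hormone of the stomach. In mouse islets beta cells are the majority and alpha, delta and epsilon cells lie mostly at the rim, so the genes described here report on the minority of the islet. Alpha cell identity is tied to the homeodomain factors Irx1, Irx2 and Pou3f4, and delta cell identity to the homeodomain factor Hhex.

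No member differed between genotypes past the threshold. Of the 12 probe sets, 0 passed a limma adjusted p of 0.05, against 0.0289% of all probe sets tested (13 of 45037), and the adjusted p of the members ran from 0.431 to 0.969. At an unadjusted limma p under 0.05 there were 3 members, Hhex and Irx2 lower and 1 of the 2 Pou3f4 probe sets higher, where 7.33% of all probe sets met this mark, 3.51% lower and 3.82% higher in hIAPP_Tg islets. An ordinary linear model test without moderation also called 0 of the 12. When any 1 array was left out, 1 to 4 of all probe sets passed and again 0 of the members. Of the 12 differences 10 lay below 0 and 2 above, with a median of -0.067 (all probe sets: 20138 above, 19643 below and 5256 at 0, median 0). The 12 are not independent, since 4 of them read Ttr.

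**Figure D1:**
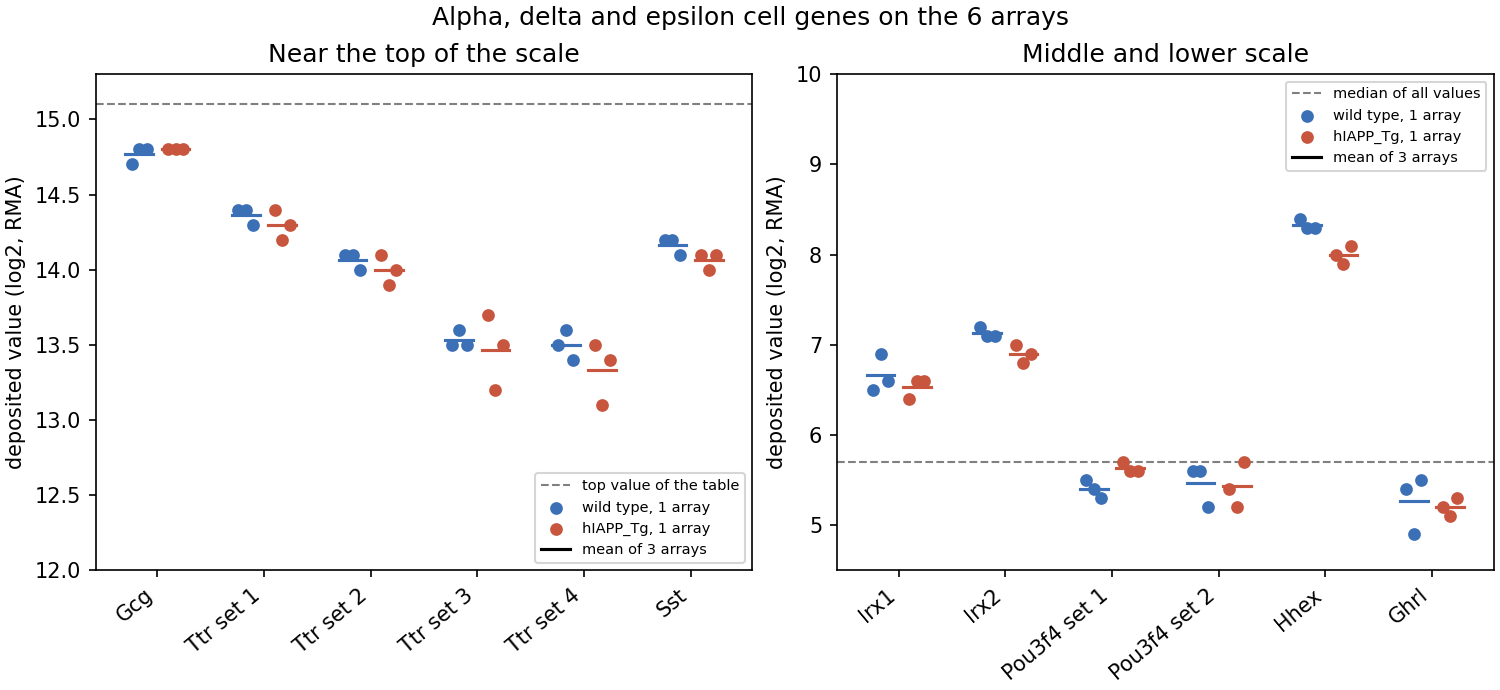
Deposited log2 value (vertical axis) of each of the 12 member probe sets on each array, wild type in blue and hIAPP_Tg in red, with a line at the mean of 3 arrays; the probe sets of a gene are numbered from the brightest. Gcg, Ttr and Sst lie close under the top value of the table (15.1, dashed, left), Pou3f4 and Ghrl lie around or under the median of all values (5.7, dashed, right), and the genotypes stand apart for Irx2, Hhex and the first Pou3f4 probe set.

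Start regions of Gcg and Sst are shown because their hormones define alpha and delta cells, and that of Hhex because it had the lowest p among the members. The sequences are from RefSeq on GRCm38.p6, 5′ to 3′ on the strand of the gene. For Gcg the 250 bases before the transcript start are given (chr2:62483654-62483903, minus strand), with TATAAA and TAAT on either strand in capitals. For Sst 30 bases around a TGACGTCA are given (chr16:23890874-23890903, minus strand), with that word, the cyclic AMP response element, in capitals. For Hhex the 250 bases before the start are given (chr19:37434591-37434840, plus strand), with CCAAT on either strand in capitals.
Gcg: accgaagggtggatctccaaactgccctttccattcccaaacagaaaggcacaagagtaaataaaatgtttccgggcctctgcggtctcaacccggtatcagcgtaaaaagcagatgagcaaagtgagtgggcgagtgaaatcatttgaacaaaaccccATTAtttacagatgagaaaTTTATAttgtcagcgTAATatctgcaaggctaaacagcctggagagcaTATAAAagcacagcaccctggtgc
Sst: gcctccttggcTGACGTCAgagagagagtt
Hhex: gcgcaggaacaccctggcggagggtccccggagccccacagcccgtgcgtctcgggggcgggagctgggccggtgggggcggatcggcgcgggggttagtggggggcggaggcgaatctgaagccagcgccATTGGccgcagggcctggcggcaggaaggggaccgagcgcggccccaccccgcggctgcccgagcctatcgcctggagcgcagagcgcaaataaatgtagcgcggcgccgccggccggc

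The Gcg window held TATAAA 24 bases before the start and, on the opposite strand, 72 bases before it, and TAAT, the core word of homeodomain sites, 57 bases before it and, on the opposite strand, 91. TATAAA occurred on either strand in 12.4% and TAAT in 54.9% of the 32817 start windows of 250 bases in the same table. The Sst window held the cyclic AMP response element beginning 48 bases before the start, a word found in 1.55% of windows. It also held 1 TAAT, 95 bases before the start. The Hhex window held no TATAAA, no TAAT and no TGACGTCA, and only these exact words were searched. It held 1 CCAAT, on the opposite strand 119 bases before the start, a word found in 33.8% of windows. The octamer ATGCAAAT, a word bound by POU factors such as Pou3f4, was in 1.6% of windows on either strand and in none of the 9 windows of the 6 members searched. Such matches describe the letters only, and no binding was measured here.

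Of the hormone genes among the members, Gcg, Sst and Ghrl, glucagon had the least spread. Gcg encodes the precursor of glucagon and, in gut cells, of GLP-1. Its probe set read 14.7, 14.8 and 14.8 in wild-type mice and 14.8 on each hIAPP_Tg array. The groups overlapped, and apart from wild-type replicate 1 all arrays held the same value. The means were 14.77 ± 0.058 in wild-type and 14.8 ± 0 in hIAPP_Tg islets (SD, n = 3 each). The difference was 0.033 (SE 0.057, 95% interval -0.10 to 0.17, limma adjusted p = 0.908). The values are rounded to a step of 0.1, so an SD of 0 means a spread under that step.

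Somatostatin lay slightly lower on the transgenic arrays, within the overlap. Sst read 14.2, 14.2 and 14.1 in wild-type mice and 14.1, 14 and 14.1 in hIAPP_Tg mice. The groups share the value 14.1, and hIAPP_Tg replicate 5 was the lowest. The difference was -0.10 (SE 0.063, 95% interval -0.25 to 0.052, limma adjusted p = 0.72). Leaving out 1 array at a time moved it between -0.13 and -0.067.

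Ghrelin was near the lower part of the scale. Ghrl read 5.4, 4.9 and 5.5 in wild-type mice and 5.2, 5.1 and 5.3 in hIAPP_Tg mice. All transgenic values fell inside the wild-type range, and every value was under the median of 5.7 over all probe sets. The deposited table holds no detection call, so Ghrl cannot be said to exceed background here, and the defining epsilon cell hormone was not shown to be present. The difference was -0.067 (SE 0.16, 95% interval -0.46 to 0.33, limma adjusted p = 0.915), and it turned to 0.05 without wild-type replicate 3. Mboat4, the enzyme that attaches the fatty acid ghrelin needs for activity, was lower still, at 4.8 ± 0.10 in wild-type and 4.7 ± 0.10 in hIAPP_Tg islets (limma adjusted p = 0.791).

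The brightest members lay close to the top of the scale. The top value of the table, 15.1, was held on each array by 1 probe set, that of Ins2, the main insulin gene, which read 15.1 on every array. Gcg lay 0.32 under this value, with 3 probe sets brighter on average. The brightest Ttr probe set lay 0.77 under it and Sst 0.98, with 7 and 13 probe sets brighter. Among the 5 probe sets with a mean of 14.5 or above, the largest difference between genotypes of either sign was 0.033. Gcg is itself 1 of these 5, and its own difference equals that value. Among the 12 from 14 to 14.5 the largest was 0.467. In neither of these small ranges did a probe set reach an unadjusted limma p under 0.05. Just below them, 12.1% of the 33 from 13.5 to 14 and 8.11% of the 74 from 13 to 13.5 did. Between 7 and 9 the share was 9.3%. The median SD within a genotype was 0.041 at 14.5 or above and 0.129 between 7 and 9. The intervals of Gcg, Sst and Ttr are for this log2 scale, and saturation of their probes was not tested.

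**Figure D2:**
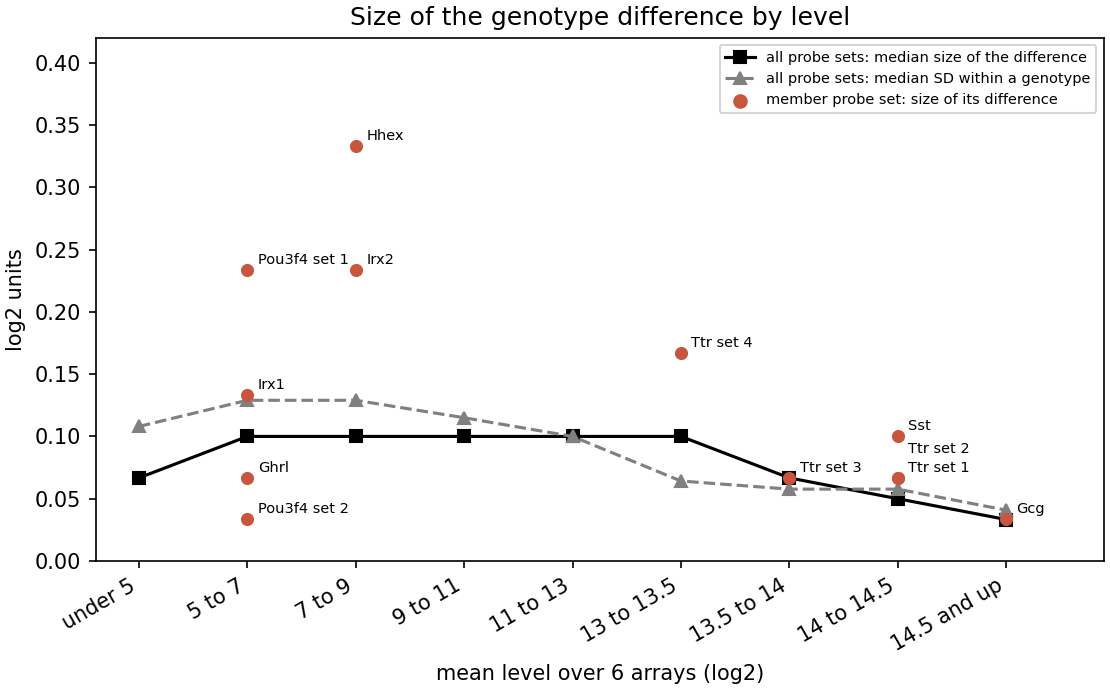
Size of the genotype difference, without its sign, of each member probe set (red points) at its mean level over the 6 arrays, with the median size of the difference (black squares) and the median SD within a genotype (grey triangles) over all probe sets in the same level range, all in log2 units. Both medians shrink toward the top of the scale, where Gcg, Sst and the Ttr probe sets lie. Hhex, Irx2 and the first Pou3f4 probe set stand furthest above the median difference of their ranges. Sst, Irx1 and most Ttr probe sets stand above theirs by less. Gcg, Ghrl, the second Pou3f4 probe set and the remaining Ttr probe set do not stand above theirs.

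Transthyretin was measured by several probe sets with similar profiles. Ttr encodes a carrier of thyroid hormone and retinol that can itself form amyloid, and within islets it is made chiefly by alpha cells. The brightest probe set (1454608_x_at) read 14.4, 14.4 and 14.3 in wild-type mice and 14.4, 14.2 and 14.3 in hIAPP_Tg mice. The second (1459737_s_at) read 14.1, 14.1 and 14 against 14.1, 13.9 and 14. The remaining pair read 13.5, 13.6 and 13.5 against 13.7, 13.2 and 13.5 (1455913_x_at), and 13.5, 13.6 and 13.4 against 13.5, 13.1 and 13.4 (1451580_a_at). In all 4 the genotypes overlapped and hIAPP_Tg replicate 5 was the lowest array. Suffixes _x and _s mark sets whose probes can match more than 1 transcript, so these are not separate measurements of Ttr alone.

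The differences of the Ttr probe sets were -0.067, -0.067, -0.067 and -0.17, with limma adjusted p of 0.756 to 0.908. The widest 95% interval, of 1455913_x_at, ran from -0.38 to 0.25, and that of 1451580_a_at from -0.45 to 0.12. Without hIAPP_Tg replicate 5, the probe set 1455913_x_at turned to 0.067 and the difference of 1451580_a_at shrank to -0.05. Among the 124 probe sets with a mean of 13 or above the median difference was 0.067, and 20.2% lay below 0, as did the Ttr probe sets and Sst. In the range from 14 to 14.5 the median was 0, with 33.3% of the 12 probe sets below 0 and 33.3% above. Sst and the brighter pair of Ttr probe sets are themselves among these 12 and make up most of the share below 0. This range is therefore no separate comparison for them, and the 124 also include Sst and the Ttr probe sets.

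One transgenic array recurred as the lowest among the members. The array of hIAPP_Tg replicate 5 alone held the lowest value for 7 of the 12 probe sets, namely those of Ttr, Sst, Hhex and Irx2, and shared it for 1 more. Over all probe sets it was lowest alone in 13.1%, and over the 124 brightest in 14.5% (18 probe sets). The mean over markers of acinar cells, the enzyme-making cells of the exocrine pancreas that can cling to isolated islets, was also lowest there. So were the means of the beta cell markers (12.64), the endocrine lineage and granule genes (10.77) and the hormone receptors (6.144). That of the further delta cell genes was lowest there and on wild-type replicate 2 (6.689). The means of the remaining marker lists were lowest on other arrays. Of the acinar markers, Amy1, Rbpjl and Bhlha15 were not lowest there. The mean over the 21 acinar markers measured was 9.743, 10.97 and 11.3 in wild-type and 10.79, 8.71 and 9.962 in hIAPP_Tg mice, and the values with this mean as a covariate are given with the marker lists.

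**Figure D3:**
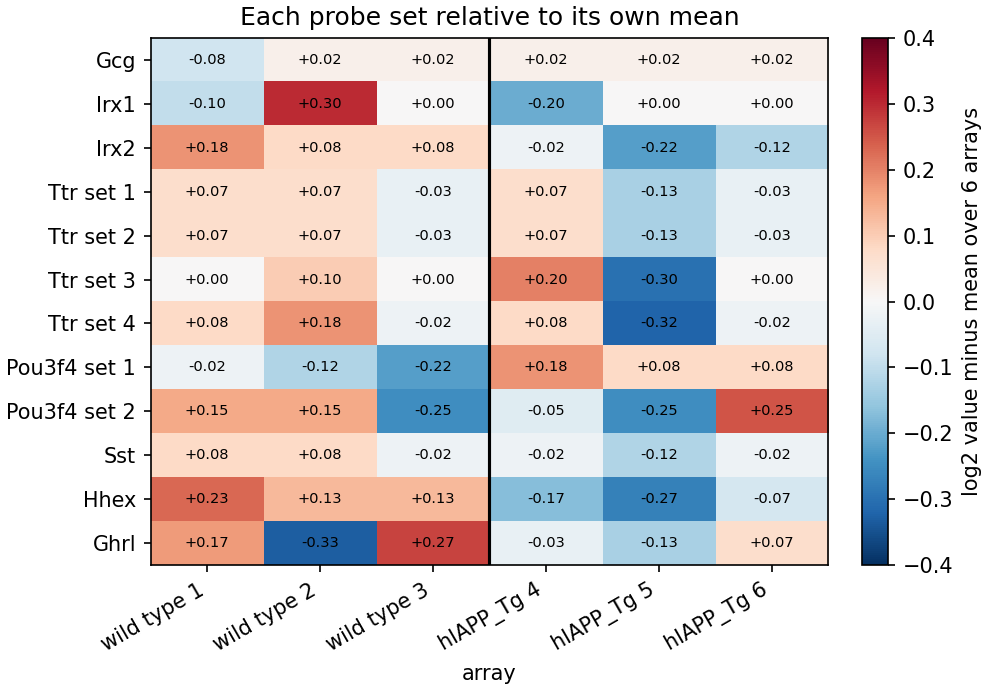
Deposited log2 value of each member probe set on each array minus its own mean over the 6 arrays, printed in each cell and coloured from blue (lower) to red (higher); rows are probe sets, columns are arrays, and the black line separates the genotypes. The column of hIAPP_Tg replicate 5 holds the lowest value for all Ttr probe sets, Sst, Hhex and Irx2.

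Of the alpha cell transcription factors, Irx2 was lower in transgenic islets and Irx1 was not separated. Both belong to the Iroquois family of homeodomain factors, and they are neighbouring protein-coding genes on chromosome 13, with Irx4 on the far side of Irx2. Irx2 read 7.2, 7.1 and 7.1 in wild-type mice and 7.0, 6.8 and 6.9 in hIAPP_Tg mice. The groups did not overlap, which held for 6.66% of all probe sets in either direction and for 3.22% in the lower direction. The difference was -0.23 (SE 0.073, 95% interval -0.41 to -0.056) at an unadjusted limma p of 0.0177, and it did not pass after Benjamini-Hochberg adjustment (limma adjusted p = 0.552). With 1 array left out at a time it stayed between -0.28 and -0.18.

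Irx1 read 6.5, 6.9 and 6.6 in wild-type mice and 6.4, 6.6 and 6.6 in hIAPP_Tg mice. The groups overlapped, with hIAPP_Tg replicates 5 and 6 at the value of wild-type replicate 3, and wild-type replicate 2 was the highest array. The difference was -0.13 (SE 0.12, 95% interval -0.43 to 0.16, limma adjusted p = 0.791), and it was -0.017 without wild-type replicate 2. The remaining Iroquois genes were at 3.967 to 5.433 in wild-type islets, under the median of all values, and differed by -0.10 (Irx6) to 0.10 (Irx3).

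Pou3f4, a POU-homeodomain factor that binds the glucagon promoter, gave different answers from its 2 probe sets. The probe set 1422165_at read 5.5, 5.4 and 5.3 in wild-type mice and 5.7, 5.6 and 5.6 in hIAPP_Tg mice. Here the transgenic arrays were higher and did not overlap with the wild type, as held in the higher direction for 3.44% of all probe sets. The difference was 0.23 (SE 0.073, 95% interval 0.056 to 0.41, limma adjusted p = 0.552). The probe set 1422164_at read 5.6, 5.6 and 5.2 against 5.4, 5.2 and 5.7, with full overlap. Its difference was -0.033 (SE 0.17, limma adjusted p = 0.969), and it turned to 0.033 without wild-type replicate 1 or 2 and to 0.083 without hIAPP_Tg replicate 5. Averaged over both probe sets the difference was 0.10. All 12 values lay at or under the median of 5.7, so neither can be said to exceed background.

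Hhex showed the clearest separation among the members. It encodes a homeodomain factor needed to keep delta cells in their state, and it is also active in ducts, endothelium and blood cell lineages. It read 8.4, 8.3 and 8.3 in wild-type mice and 8.0, 7.9 and 8.1 in hIAPP_Tg mice. Every transgenic array lay under every wild-type array. The means were 8.333 ± 0.058 and 8.0 ± 0.10 (SD, n = 3 each), so the transgenic level was 0.794 times that of the wild type. The difference was -0.33 (SE 0.073, 95% interval -0.51 to -0.16) at an unadjusted limma p of 0.00345, and it did not pass after adjustment (limma adjusted p = 0.431). Of all probe sets 0.748% had a smaller limma p, and 96.3% had a smaller difference of either sign. Hhex is singled out here as the member with the lowest p, so these shares are a description and not a test.

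The Hhex difference ran from -0.38 to -0.28 with 1 array left out at a time. Its groups did not overlap, so leaving out an array could not turn its sign. Under the other settings the difference ran from -0.37 to -0.33. Only quantile normalization (-0.3722) and the acinar mean as a covariate (-0.3255) changed it, and the rest could not move it. The lowest limma adjusted p over all of these was 0.297. Other cell types with Hhex activity were read through their markers. Of 15 endothelial and stromal markers 11 lay below 0 and 2 above, with a median of -0.27 and 0 past the threshold. Their list mean was 8.167 to 8.58 in wild-type and 8.08 to 8.2 in hIAPP_Tg mice. Of the 8 endothelial genes among them 5 lay below 0, 1 above and 2 at 0. The brightest, the fenestral diaphragm gene Plvap and the VEGF receptor genes Kdr and Flt1, differed by 0, 0 and 0.27, each with overlap. Without overlap and lower were the angiopoietin receptor gene Tek at -0.33 and Egfl7, a secreted endothelial protein gene, at -0.30, named after their values were seen. The highest on the list was the pericyte receptor gene Pdgfrb (0.43, without overlap) and the lowest were the matrix genes Col3a1 and Lum, each at -0.50 with overlap. Wild-type replicate 1 was the highest array for both, as for the list mean (8.58). The part of endothelial RNA in the Hhex difference was not tested. Of 6 duct markers 0 passed, with a median of -0.033 and overlapping list means (6.067 to 6.133 and 6.017 to 6.15). They ran from -0.13 for Sox9 and Muc1 to 0.33 for the keratin gene Krt7. Krt7 was higher in hIAPP_Tg islets without overlap (limma adjusted p = 0.62). The mean level of 4 of the 6 duct markers was under the median of all values.

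**Figure D4:**
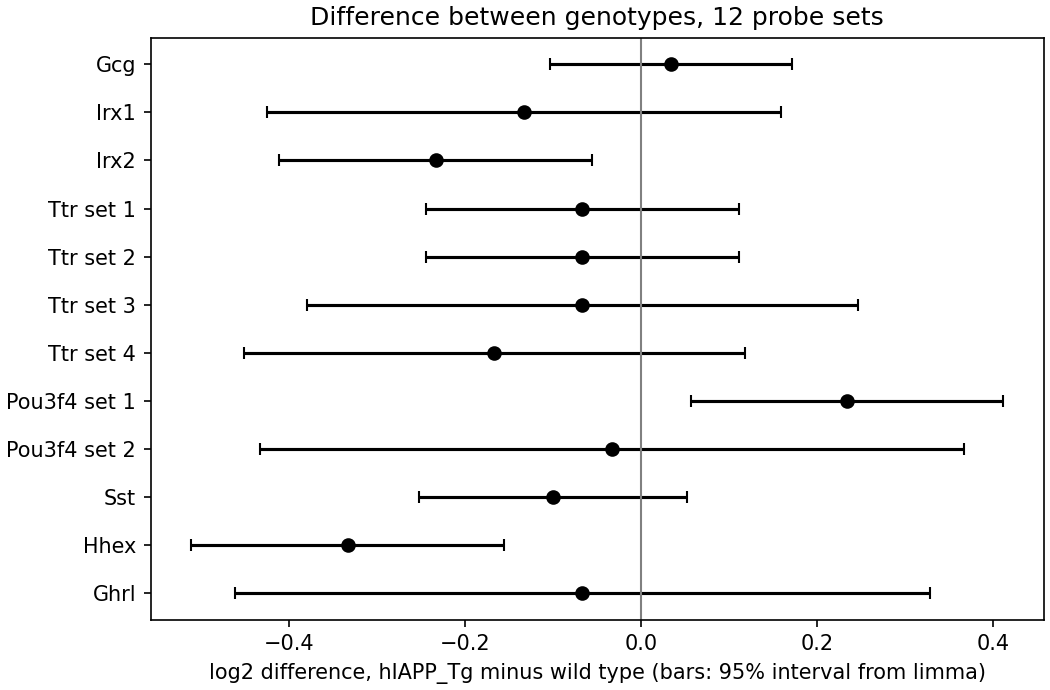
Log2 difference between genotypes (hIAPP_Tg minus wild type, horizontal axis) of the 12 member probe sets, with bars for the 95% interval from limma, not adjusted for the number of probe sets. The intervals of Irx2 and Hhex lie below 0 and that of the first Pou3f4 probe set lies above 0; the other 9 include 0, and no adjusted p was under 0.431.

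Profiles most like those of the members were sought among probe sets at or above the median level that spanned at least 0.5 over the 6 arrays. Likeness was the root mean square deviation between profiles, each centred on its own mean. Only Irx1, Hhex and Ghrl spanned 0.5 themselves on their brightest probe set. For Hhex the nearest of 6355 candidates was Mif4gd, which encodes a protein with a translation initiation factor domain, at a deviation of 0 (7.8, 7.7 and 7.7 against 7.4, 7.3 and 7.5), then Hnrnpa2b1, an RNA-binding protein gene, at 0.0373 and D3Ertd751e at 0.0471. For Irx1 they were Pcyt1a (0.0373), Ehbp1l1 (0.0471) and Taf1a (0.0471), and for Ghrl they were Plcxd3 (0.0687), Lcorl (0.0687) and Sdf4 (0.0745).

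Other genes of the same cells did not pass either. Of 10 further alpha cell genes measured, 0 passed, 4 lay above and 5 below 0, and the median was -0.017. The lowest was Dpp10, which encodes an auxiliary subunit of voltage-gated potassium channels, at 8.4, 8.8 and 8.8 in wild-type and 8.1, 7.9 and 8.1 in hIAPP_Tg mice. These groups did not overlap (difference -0.63, SE 0.13, limma adjusted p = 0.419), while its second probe set differed by -0.27 with overlap. The highest was Tm4sf4, a tetraspanin-like membrane protein gene, at 0.23 with overlap.

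Of 9 further delta cell genes, 0 passed, 4 lay above and 5 below 0, and the median was -0.033. The mean level of 4 of the 9, Ghsr, Crhr2, F5 and Lepr, was under the median of all values. These 4 cannot be said to exceed background. Rbp4, the retinol carrier gene that marks delta cells, read 11.5, 11.5 and 11.6 in wild-type and 11.8, 11.6 and 11.7 in hIAPP_Tg mice (difference 0.17, limma adjusted p = 0.632), opposite in sign to Hhex and Sst. It was named after its values were seen. The highest by size was F5, a coagulation factor gene, at 0.20. The lowest were Ghsr, the ghrelin receptor gene, the leptin receptor gene Lepr and the gastrin receptor gene Cckbr, each at -0.10. Ghsr was at 3.7 ± 0.20 in wild-type islets, near the bottom of the table at 2.9.

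Of 6 genes of PP and epsilon cells, 0 passed, with 1 above 0, 3 below and a median of -0.05. Pyy, encoding peptide YY of PP and delta cells, read 13.6, 13.6 and 13.7 against 13.8, 13.8 and 13.7 (0.13, limma adjusted p = 0.632). Ppy, encoding pancreatic polypeptide, read 14.5 on all 6 arrays, again near the top. The lowest was Vtn, the vitronectin gene, at -0.23. Receptors for the hormones of these cells also gave 0 of 9 past the threshold and a median of -0.033. The mean level of 4 of these 9 was under the median of all values. The lowest was Glp1r, the receptor for GLP-1, at -0.17 (limma adjusted p = 0.683), and the highest were the somatostatin receptor genes Sstr3 and Sstr4, each at 0.067. The glucagon receptor gene Gcgr differed by -0.033.

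Factors of the islet endocrine lineage, its progenitors included, and granule proteins held 0 of 15 past the threshold (3 above, 9 below, median -0.067). The lowest was Insm1, a zinc finger factor of endocrine differentiation, at 11.5, 11.5 and 11.6 against 11.6, 10.6 and 11.1 (difference -0.43, limma adjusted p = 0.683). Its second probe set, at 10.8, 10.7 and 10.7 against 10.2, 9.8 and 10.2, did not overlap (difference -0.67, SE 0.12). The highest was Chgb, the granule protein chromogranin B, at 13.4, 13.5 and 13.4 against 13.6, 13.7 and 13.6 (difference 0.20, limma adjusted p = 0.552), without overlap. Of the 8 Iroquois and POU relatives 0 passed, from -0.23 for Pou6f1 to 0.17 for Pou3f3. The mean level of 5 of these 8, Pou3f3 among them, was under the median of all values.

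Beta cell markers formed the reference for the remaining endocrine mass. Of 8 measured, 0 passed, 6 lay below 0, and the median was -0.15. The list mean was 12.9 to 13.01 in wild-type and 12.64 to 12.82 in hIAPP_Tg mice. Trpm5, a cation channel gene of beta cells, was lowest at -0.67 without overlap (limma adjusted p = 0.557). Its other probe sets differed by -0.77 without overlap and by -0.50 with overlap. Iapp was highest at 0.033. The mean over the brightest probe sets of the 8 members was 9.5 to 9.538 against 9.375 to 9.462, given as a description only.

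Immune and exocrine markers had larger median differences than any member. Of 16 macrophage markers 15 lay above 0, with a median of 1.12, and 2 passed, Mpeg1 (1.57, limma adjusted p = 0.00683) and Tyrobp (1.5, limma adjusted p = 0.0271). The largest difference on the list was that of Lyz2 (2.47, limma adjusted p = 0.0555) and the lowest that of Fcer1g (-0.033). The list mean was 7.112 to 7.256 in wild-type and 8.2 to 8.375 in hIAPP_Tg mice. Of 21 acinar markers 0 passed and 19 lay below 0, from Ctrc and Rnase1 at -1.33 to Bhlha15 at 0.13, with a median of -0.97. The genotypes overlapped for each acinar marker. The acinar list mean overlapped too, at 9.743 to 11.3 in wild-type and 8.71 to 10.79 in hIAPP_Tg mice. With the acinar mean as a covariate the differences were -0.33 for Hhex, -0.21 for Irx2, -0.089 for Sst, 0.056 for Gcg and -0.071 to 0.067 for the Ttr probe sets, and 0 of the 12 members passed. The part of macrophage RNA in the member values was not tested.

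**Figure D5:**
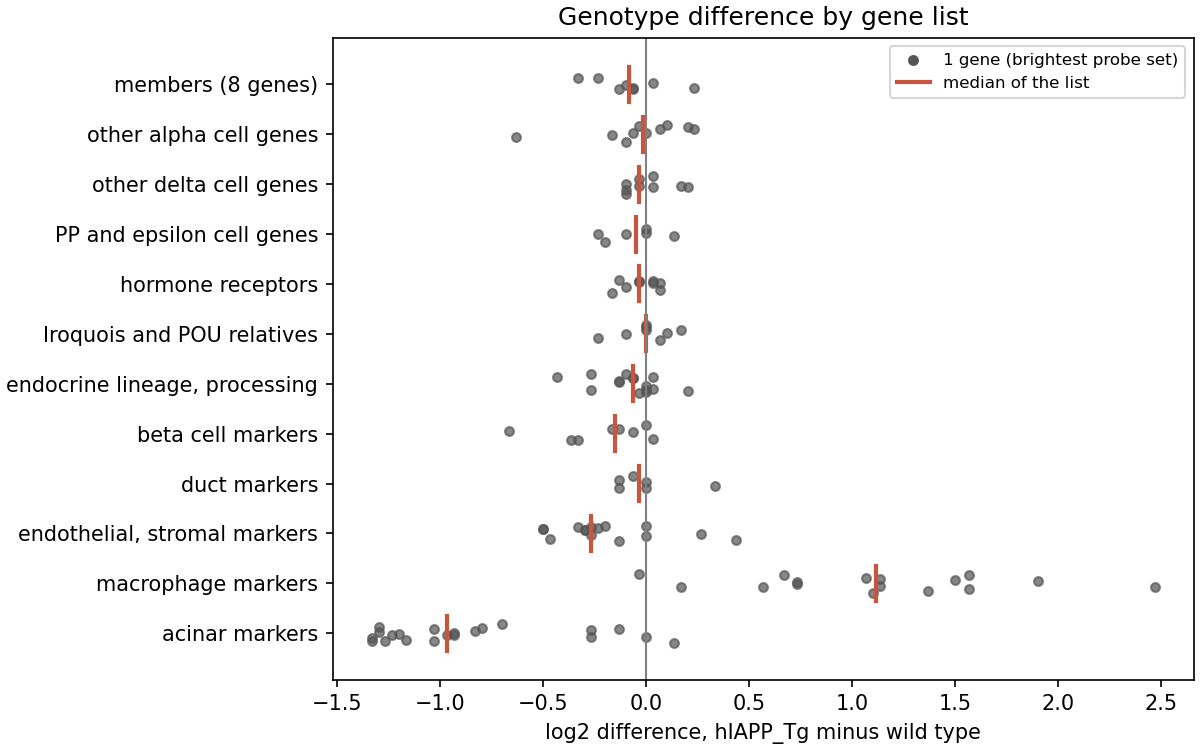
Log2 difference between genotypes (hIAPP_Tg minus wild type, horizontal axis) of each gene by its brightest probe set (grey points), in 12 lists, with the median of each list as a red line. The 8 members and the other endocrine lists lie close to 0, with medians from -0.15 to 0, while the macrophage list has a median of 1.12 and the acinar list one of -0.97.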

How the data were processed

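Affymetrix arrays of islets from 6 mice gave 45101 probe sets. Values are log2 expression values that the authors deposited after RMA with affy, per the submitters' processing notes (versions not given in the sources used here). RMA sets the distributions of probe intensities alike across arrays before probe sets are summarized. The deposited values still differed somewhat, with 18 to 23 probe sets at 14 or above per array. Array log2 values can compress differences near both ends, which was not tested here. Arrays carry no read depth, and precision is limited by their number. The 64 control probe sets were left out. In any pair of arrays 19.2% to 24.3% of values were identical, so no array was a copy of another. Names came from the platform annotation: 34945 probe sets had 1 symbol, 932 several and 9160 none here. Some genes of the lists are not analysed here.

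Genotypes were compared at each probe set with limma 3.58.1 in R 4.3.3 (lmFit, eBayes, two-sided, no covariate, Benjamini-Hochberg over 45037 probe sets, threshold 0.05), after a check on simulated data. Replicate numbers differ between genotypes, so nothing was paired. The labels give separate mice. For list genes the probe set with the highest mean stood for the gene. Members and lists were chosen with earlier results of these data known. Named were all members, Ins2, the highest and lowest gene of each other list, genes past the threshold and the 3 nearest profiles. Mboat4, Ppy, Gcgr, Rbp4, Tek, Egfl7, Plvap, Kdr, Flt1, Irx3 and Irx6 were named after their values were seen. The alternatives were 8 settings, among them median centring, quantile normalization and the acinar mean as a covariate, and each array left out in turn. Motifs were searched in Python 3.11.15, and figures were drawn with matplotlib 3.10.9.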

Additional observations from a re-analysis of the deposited data

How the results depend on the processing

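No paired analysis was possible because the genotypes share no replicate number. No member probe set passed under any of the 8 other settings or with any 1 array left out. The count over all probe sets was 13 and became 30 with quantile normalization, 51 with a robust prior, 128 with an ordinary linear model test, 3 with the acinar mean as a covariate and 1 to 4 with 1 array left out, and the cause was not tested. The sign changed for 3 member probe sets: Ttr 1455913_x_at (-0.067) became 0.067 with the acinar covariate and ran from -0.18 to 0.067 with 1 array left out, Pou3f4 1422164_at (-0.033) ran from -0.17 to 0.083 and Ghrl (-0.067) from -0.25 to 0.05. Hhex, Irx2, Irx1, Sst, the other Ttr probe sets and Pou3f4 1422165_at kept their sign throughout, and Gcg ran from 0 to 0.056. For Hhex, Irx2 and Pou3f4 1422165_at, whose groups did not overlap, leaving out an array could not turn the sign. Pou3f4 and Ghrl were not among the probe sets left after the filter on dim signals. Differences under the rounding step of 0.1, which include those of Gcg, Ghrl and most Ttr probe sets, are at the limit of what the deposited values resolve.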
